A study of Homo sapiens with 3 samples.

Results

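MYC binding was examined at the start sites of 10 genes that encode proteins of the cytosolic ribosome. RPLP0, RPL3, RPL5, RPL11, RPL13A, RPL22 and RPL23 belong to the large (60S) subunit, and RPS3, RPS6 and RPS19 belong to the small (40S) subunit. A gene's MYC regions were the listed ChIP-seq regions whose summit, the base with the most fragments, lay within 3 kb of its start site on hg19. By this rule the 10 genes held 12 of the 31378 regions of the untreated list and 11 of the 27614 regions of the MST-312 list. The series holds 3 samples of P493, a human B cell line immortalised with Epstein-Barr virus that carries a tetracycline-repressible MYC gene; the labels name no tetracycline. They are an untreated MYC library, a MYC library from cells given MST-312, which is a small-molecule telomerase inhibitor, and an input library of untreated cells. MYC was precipitated with the N262 antibody, and the input served only as the background for calling. How much MST-312 was given, and for how long, the labels do not say. Each condition is 1 library, so the comparisons below rest on single values and carry no p-value.

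Ribosomal proteins are made in near-equal amounts and assembled with ribosomal RNA in the nucleolus into the 2 subunits. MYC is a basic helix-loop-helix leucine zipper factor that pairs with MAX, binds the E-box CACGTG and many open promoters without one, and is known for raising ribosome production. Ribosomal protein mRNAs are 5′ TOP mRNAs: they start with a C and an unbroken run of pyrimidines, through which mTOR signalling and LARP1 control their translation.

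The start sites are shown first because the main summit of each gene lay near its own. RefSeq promoter windows on GRCh38.p14 were matched by symbol for 8 of the 10 genes, with no entry for RPL5 and RPL23. RPL11 and RPS19 have 2 windows each. These windows were not placed against the hg19 regions, and the RefSeq start need not be the same base as the hg19 start used for the distances. Each line gives 15 bases before and 15 bases from the start site on, 5′ to 3′, with the run of C and T that holds the start base in capitals.
RPLP0 (chr12:120201097-120201126, minus strand): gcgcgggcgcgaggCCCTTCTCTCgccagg
RPL3 (chr22:39319609-39319638, minus strand): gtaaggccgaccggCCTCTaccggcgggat
RPL11 (chr1:23691764-23691793, plus strand): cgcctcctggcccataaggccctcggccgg
RPL11 (chr1:23691791-23691820, plus strand): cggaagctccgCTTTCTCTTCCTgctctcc
RPL13A (chr19:49487593-49487622, plus strand): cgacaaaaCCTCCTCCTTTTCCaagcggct
RPL22 (chr1:6199581-6199610, minus strand): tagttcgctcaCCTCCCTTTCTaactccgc
RPS3 (chr11:75399503-75399532, plus strand): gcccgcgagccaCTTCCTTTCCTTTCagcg
RPS6 (chr9:19380222-19380251, minus strand): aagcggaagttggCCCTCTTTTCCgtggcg
RPS19 (chr19:41860240-41860269, plus strand): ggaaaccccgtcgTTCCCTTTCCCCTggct
RPS19 (chr19:41860389-41860418, plus strand): cccgtcccgccccctagagccgcggccacg

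In 7 of the 8 genes, all but RPL3, the start base of at least 1 window was a C followed by 4 or more pyrimidines. The same held for 4.07% of all 35116 promoter windows. Here and for the motifs below, a gene counts if any of its windows does, while the shares are of single windows. The RPL3 run was shorter, and the upstream start of RPL11 and the downstream start of RPS19 had no such run. This pattern was looked for after the sequences had been seen.

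Among the motifs searched, CACGTG, which reads the same on both strands, occurred in windows of 2 of the 8 genes, RPL13A and RPS19, and in 7.26% of all 300-base windows. In RPL13A it began at −221 from the start. In RPS19 it began at base 12 counted from the downstream start, and the upstream window held none. The general form CANNTG, which includes CACGTG, occurred in 5 of 8 genes and in 68.7% of all windows. CCGGAA, the core bound by ETS factors, searched on both strands, occurred in RPL3, RPL11, RPL13A and RPS6, and in 17.2% of all windows. AAGATGG, a part of the YY1 site, was found in RPL13A and RPS3 and in 5.84% of all windows. CTTTT occurred in 6 of 8 genes and in 48.9% of all windows. The 250 bases before the start are printed for RPL13A, which had the lowest MYC pileup of the 10 genes in both lists, and for RPS19 and RPS6, which had the highest in the MST-312 list. CACGTG and CCGGAA are in capitals.
RPL13A (chr19:49487358-49487607, plus strand): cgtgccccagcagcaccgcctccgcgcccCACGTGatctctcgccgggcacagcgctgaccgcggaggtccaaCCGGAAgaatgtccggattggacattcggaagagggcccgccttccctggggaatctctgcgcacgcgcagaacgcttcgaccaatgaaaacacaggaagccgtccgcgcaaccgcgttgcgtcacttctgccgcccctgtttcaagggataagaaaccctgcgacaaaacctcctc
RPS19 (chr19:41860005-41860254, plus strand): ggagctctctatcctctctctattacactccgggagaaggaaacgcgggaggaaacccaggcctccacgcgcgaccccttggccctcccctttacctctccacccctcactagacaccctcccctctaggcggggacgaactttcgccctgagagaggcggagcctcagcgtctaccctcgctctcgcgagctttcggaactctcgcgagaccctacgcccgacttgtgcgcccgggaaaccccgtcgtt
RPS6 (chr9:19380237-19380486, minus strand): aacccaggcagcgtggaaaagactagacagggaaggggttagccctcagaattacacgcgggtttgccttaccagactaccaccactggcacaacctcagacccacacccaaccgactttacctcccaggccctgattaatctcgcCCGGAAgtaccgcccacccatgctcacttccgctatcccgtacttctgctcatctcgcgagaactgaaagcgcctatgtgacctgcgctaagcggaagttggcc

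The CACGTG after the downstream RPS19 start is shown with its flanks.
RPS19 (chr19:41860403-41860432, plus strand): tagagccgcggcCACGTGcgagcggcaggc

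All 10 genes had a listed MYC region at their start in both libraries. For comparison, 61.3% of all untreated regions had an MST-312 summit within 3 kb of their own, and 98.7% of the 6052 untreated regions with a pileup at least as high as the lowest of these genes (126 fragments). In the other direction, 67.1% of MST-312 regions had an untreated summit within 3 kb. The share for strong regions lies close to the 10 of 10 seen here. Each start site lay inside its region in both lists. The summits lay downstream of the start for 10 of 10 genes in both lists, by a median of 149.5 bp in untreated and 133.5 bp in MST-312 cells. The same was not counted at other promoters, and the distances depend on the hg19 start used for each gene. They were nearest to the start at RPLP0, 35 bp downstream in untreated and 58 bp in MST-312 cells. At RPS19, a gene with more than 1 RefSeq start, they were farthest, at 437 and 426 bp. Strand was taken from the RefSeq windows, and for RPL5 and RPL23 from the known direction of the gene. Between lists the summit moved by 4 bp at RPS3 and by 96 bp at RPL23, with a median of 24 bp over the 10 genes. The median was 46 bp over all 15265 pairs in which 1 untreated region overlapped 1 MST-312 region. In the strongest 25% of these pairs, defined below, which held all these genes but RPL13A, it was 31 bp.

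**Figure D1:**
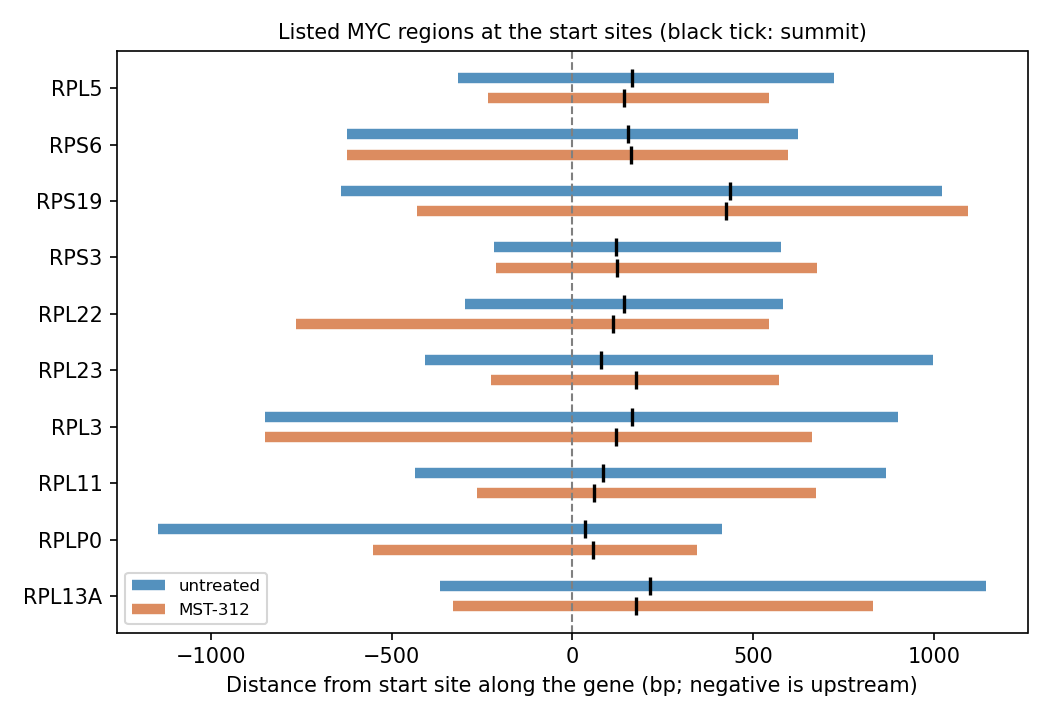
Extent of the listed MYC region at each start site in the untreated (blue) and MST-312 (orange) lists, in bp along the direction of the gene with the start at 0; black ticks are summits. All 20 summits sit to the right of the start, which was not counted at other promoters. The region was narrower after MST-312 at 8 of the 10 genes, the exceptions being RPS3 and RPL22.

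MYC pileups at these genes stood high in their own lists. The pileup is the authors' number of fragments, extended to 200 bp, over the summit base. The untreated list ranged from 126 fragments at RPL13A to 668 at RPL5, with a median of 368, against a median of 62 over the whole list. In the MST-312 list the range was 97 fragments at RPL13A to 285 at RPS19, with a median of 204.5, against 50 over the whole list. RPL5 ranked 11th of 31378 regions in the untreated list and 290th of 27614 in the MST-312 list. At 9 of the 10 genes the pileup exceeded that of at least 92.9% of the regions of the same list, in both lists. RPL13A was the exception, above 80.7% of untreated and 84.5% of MST-312 regions.

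Per kept tag, pileups were lower after MST-312 at all 10 genes, and relative to the median of all pairs at 8, the exceptions being RPL3 and RPL13A. For this comparison each pileup was divided by the tags its library kept after duplicate removal (60805153 untreated and 55400354 MST-312) and is called a scaled pileup, in fragments per 10000000 kept tags. The MST-312 to untreated ratio had a median of 0.555 over the 10 genes and ran from 0.393 at RPL5 to 0.845 at RPL13A. A lower scaled pileup was also the rule among all pairs of regions, 79.0% of which were lower after MST-312, and 95.3% in the 25% of pairs with the highest mean scaled pileup, called the strongest pairs below. These held 9 of the 10 genes, and RPL13A was in the next 25%. The median ratio was 0.758 over all pairs and 0.665 in the strongest pairs. Scaling to the median of all pairs instead divides each pileup by its library's median over them, 99 untreated and 67 MST-312 fragments. The ratios of RPL3 and RPL13A were then 1.05 and 1.14. How many pairs were lower under this scaling was not counted. Strong regions tend to lie below the median of all pairs, as the 0.665 of the strongest pairs shows. Per kept tag, RPS3, RPL3 and RPL13A had ratios above that 0.665. All intervals below are 95% intervals for counting error only, exact Poisson for pileups and exact binomial for ratios. They leave out the spread between cultures, and a summit is the highest point of its region.

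At 7 of the 10 genes the scaled pileup was at least 1.5-fold lower after MST-312. The same held for 33.6% of all pairs and for 50.6% of the strongest pairs. The strongest pairs were still weaker than these genes. Their median pileups were 207 untreated and 126 MST-312 fragments, against 368 and 204.5 over the 10 genes. At 3 genes, RPL5, RPL23 and RPLP0, it was at least 2-fold lower, as for 7.98% of all pairs and 11.6% of the strongest pairs. None of the 10 was 1.5-fold higher, against 2.29% of all pairs and 0.105% of the strongest pairs. With scaling to the median of all pairs, 3 genes in place of 7 were at least 1.5-fold lower, again RPL5, RPL23 and RPLP0. The share of pairs past the same line under that scaling was not counted.

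**Figure D2:**
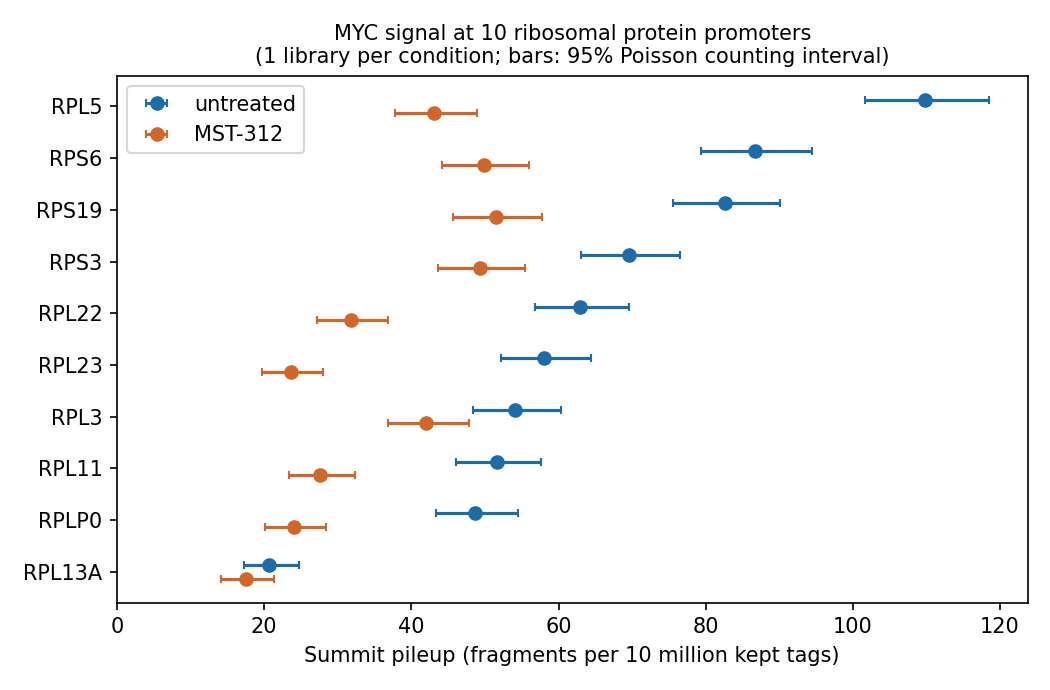
Scaled summit pileup (fragments per 10000000 kept tags) of the MYC region at each gene in the untreated (blue) and MST-312 (orange) library, 1 library each; bars are 95% Poisson counting intervals. The intervals of the libraries are apart at 9 genes and overlap at RPL13A, which has the lowest pileups. The same count was not made over all pairs, and 95.3% of the strongest pairs were lower after MST-312.

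RPL5 and RPL11 form a particle with 5S ribosomal RNA that also binds and inhibits MDM2, the ubiquitin ligase of p53. RPL5 (untreated region chr1:93297279-93298322) had 668 fragments in untreated and 239 in MST-312 cells, or scaled pileups of 109.9 and 43.1. Its ratio of 0.393 (0.337 to 0.456) was the lowest of the 10 genes, and 1.91% of the strongest pairs had a ratio as low or lower. It thus went from the highest pileup of the 10 genes in the untreated list to the fourth highest in the MST-312 list, below RPS19, RPS6 and RPS3. RPL11 (chr1:24017857-24019161) had 314 and 153 fragments, a ratio of 0.535 (0.438 to 0.651). The intervals of the RPL5 and RPL11 ratios overlapped narrowly.

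RPL23, a protein of the subunit interface that can also bind MDM2, stood beside RPL5. Its region (chr17:37008991-37010396) had 353 fragments in untreated and 131 in MST-312 cells, and the ratio was 0.407 (0.331 to 0.499). Of the strongest pairs, 2.67% had a ratio as low or lower. RPL23 also had the largest shift of the summit, from 79 to 175 bp downstream of the start, and its region shrank from 1406 to 797 bp. RPL22 is an RNA-binding protein of the 60S surface, best known for its role in lymphocyte development. The RPL22 region (chr1:6259096-6259976) had 383 and 176 fragments, a ratio of 0.504 (0.419 to 0.604).

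RPLP0 carries the P1 and P2 proteins on the stalk that recruits translation factors. Its region (chr12:120638496-120640056) had 296 fragments in untreated and 133 in MST-312 cells, with a ratio of 0.493 (0.399 to 0.607). The authors' fold enrichment of the summit over the surrounding input was 30.7 for the untreated and 13.7 for the MST-312 region. RPL3 lies close to the peptidyl transferase centre. At RPL3 (chr22:39714768-39716521) the values were 329 and 233 fragments, a ratio of 0.777 (0.654 to 0.922). RPL13A is a 60S protein that, outside the ribosome, takes part in silencing certain mRNAs. The RPL13A region (chr19:49990328-49991839) had 126 and 97 fragments, the lowest pileups of the 10 genes. Its ratio of 0.845 (0.642 to 1.11) was the only one of the 10 whose interval reached 1. How many of all pairs have an interval that reaches 1 was not counted.

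The 40S genes had the highest pileups of the 10 in the MST-312 list. RPS19, whose mutations cause Diamond-Blackfan anaemia, had 502 fragments in untreated and 285 in MST-312 cells (chr19:42363348-42365012), a ratio of 0.623 (0.537 to 0.722). It also had the highest fold enrichment of the 10 genes in both lists, at 66.6 in the untreated one. RPS6, a substrate of the S6 kinases, had 527 and 276 fragments (chr9:19379627-19380877), a ratio of 0.575 (0.495 to 0.666). RPS3, which lines the mRNA entry channel, had 423 and 273 fragments (chr11:75110344-75111139), a ratio of 0.708 (0.606 to 0.827). The 3 ratios of the 40S genes lay between 0.575 and 0.708, inside the span of the 7 genes of the 60S subunit (0.393 to 0.845). The median ratio was 0.623 over the 40S genes and 0.504 over the 60S genes. A difference between the subunits was not tested.

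Ordered by ratio, the genes ran RPL5, RPL23, RPLP0, RPL22, RPL11, RPS6, RPS19, RPS3, RPL3 and RPL13A. Each gene's interval overlapped that of its neighbour in this order. The upper bounds for RPL5 and RPL23 lay below the lower bounds for RPS19, RPS3, RPL3 and RPL13A. This describes genes already sorted by their ratios and is no test of a difference between them. RPL3 and RPL22 had nearly equal mean scaled pileups, 48.1 and 47.4, with ratios of 0.777 and 0.504.

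**Figure D3:**
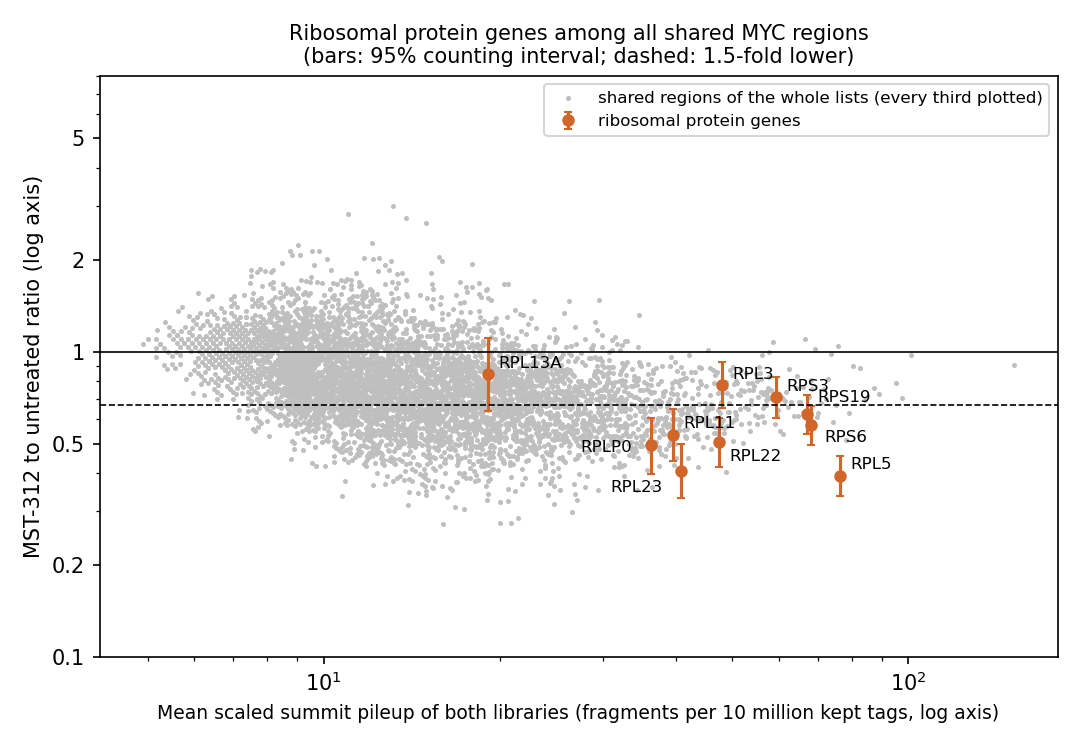
MST-312 to untreated ratio of scaled pileup (log axis) against the mean scaled pileup of both libraries (fragments per 10000000 kept tags, log axis), for the 10 genes (orange, with 95% counting intervals) and 1 in 3 pairs of regions from the whole lists (grey). RPL5 and RPL23 sit at the lower edge of the grey points at their strength, and RPL13A, RPL3 and RPS3 sit above the dashed line of a 1.5-fold lower pileup.

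The local background in the input, recovered from pileup and fold enrichment, was 6.56 to 18.3 fragments at these summits in the untreated list and 6.15 to 16.0 in the MST-312 list. It was far below the pileups, and with it subtracted the median ratio was 0.533 and the same number of genes, 7, was at least 1.5-fold lower. Of all 80489246 tags in the untreated library 75.5% were kept, against 50.9% of 108838301 in the MST-312 library. The redundant rate was 0.24 and 0.49. With 1 library per condition, duplication, precipitation efficiency and MYC occupancy cannot be told apart as sources of the lower pileups. At most 3 tags per position and strand were kept, which caps a pileup at 1200 fragments. The highest value among these genes was 668.

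MYC regions at the start sites were narrower after MST-312 at 8 of 10 genes, compared with 75.4% of all pairs and 81.7% of the strongest pairs. The median width was 1355.5 bp untreated and 1051.5 bp in the MST-312 list, and the median ratio of widths was 0.816, against 0.832 over all pairs. At 7 genes the MST-312 region lay wholly within the untreated one, a count that was not made over all pairs. In bp, RPLP0 lost most, from 1561 to 896 bp, and as a share of its width RPL23 did, with a ratio of 0.567 against 0.574 at RPLP0. The upstream edge at RPLP0 stood 1146 bp from the start in the untreated list and 551 bp in the MST-312 list, while the downstream edge went from 414 to 344 bp. At RPL23 the loss was mainly on the side of the gene body, where the edge went from 998 to 571 bp. RPL3 kept its upstream edge at 851 bp in both lists, and RPS6 was nearly the same width in both, 1251 and 1221 bp.

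RPL22 and RPS3 were wider in the MST-312 list. The RPL22 region went from 881 to 1311 bp, and its upstream edge from 297 to 766 bp, although its summit pileup was lower. Its downstream edge went the other way, from 583 to 544 bp. RPS3 went from 796 to 888 bp. The untreated list held a further RPS3 region of 542 bp with its summit 1186 bp downstream of the start and 37 fragments, and the MST-312 list had no region there. Its −log10 q of 14.8 was close to the lowest value in that list (13.01), and the MST-312 list holds no call below 13.02. RPL3 was the other gene with a further region, 1907 bp downstream in the untreated list (48 fragments) and 1948 bp in the MST-312 list (37 fragments).

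These RPL3 regions were the farthest summits inside the 3 kb limit. The nearest outside it lay 5.74 kb upstream of RPL22 in the untreated list, with 65 fragments. Stronger regions outside the limit stood 6.33 kb downstream of the RPLP0 start in the untreated list (454 fragments) and 6.28 kb in the MST-312 list (283 fragments), above the pileup at the RPLP0 start itself. RPL13A had a region 8.66 kb downstream with 317 fragments untreated and 143 MST-312, also above that at its own start. Genes at these outer regions were not assigned, since hg19 gene positions other than the start sites of the 10 genes were not used here.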

How the data were processed

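MYC ChIP-seq was analysed from 2 deposited peak lists, 1 per MYC library. The submitters' processing notes name CASAVA 1.8, Bowtie2 2.2.3 and the build hg19. Regions were called in each library against the same input with MACS 2.0.10.20131216 at a p-value threshold of 0.05 and a fragment length of 200 bp, per the file headers. The deposited pileup is a signal (fragments over the summit), unscaled since both libraries kept fewer tags than the input (63069522). The deposited fold enrichment is a ratio to the local background; its values fit 1 being added above and below the line. In the deposited −log10 p and q columns the names lack the minus sign. The lowest listed −log10 q is 13.01 untreated and 13.02 MST-312, a limit the headers do not state.

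Where several summits lay within 3 kb, the region with the highest pileup was taken. All 10 genes are named. Background is every pair of regions in which 1 untreated and 1 MST-312 region share at least 1 bp and neither meets another. Pair finding was tested on simulated data. Python 3.11.15, numpy 2.4.6, pandas 2.3.3, scipy 1.17.1 and matplotlib 3.10.9 were used. The genes, lists and settings were chosen with earlier results of these data known. A planned list of the other ribosomal protein genes was not used, as it needs hg19 start sites.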

Additional observations from a re-analysis of the deposited data

How the results depend on the processing

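Presence in both lists was 10 of 10 genes with summits within 1 or 10 kb, with any base within 1 kb, and with −log10 q of at least 26. The 10 kb limit could not lose a gene already present within 3 kb. Of 26 alternative values for the counts and medians, 23 stayed close to the reported value. For the median pileup ratio, close means between 0.467 and 0.659, the medians of the genes' own lower and upper counting bounds. These are no interval for the median itself. For the others, close means within 1.5 times the reported value. Scaling to the median of all pairs gave a median ratio of 0.747 in place of 0.555 and 3 genes at least 1.5-fold lower in place of 7, since that scaling takes out the general difference between the libraries. It turned the ratios of RPL3 (1.05) and RPL13A (1.14). A fold of 2 also left 3 genes. Of 50 alternative ratios of single genes, 40 stayed within their counting intervals, and the other 10 all came from that scaling. Taking the region nearest to the start, or only summits within 1 kb, picked the same regions as the main rule. Those settings repeated the reported ratios and widths, so their part of the 40 and of the 23 adds no support. No paired analysis was possible because each condition is 1 library, and for the same reason no library could be left out.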
